A study of Pomacea canaliculata with 12 samples.

Results

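The eye stalk of the apple snail Pomacea canaliculata was compared with its cephalic and oral tentacles in 9 of the 12 poly(A) RNA libraries of the series. The members were chosen by their labelled tissue and not by any measured value: 3 eye stalk libraries, set against the mean of 3 cephalic and 3 oral tentacle libraries. The other 3 libraries, from extracted retina, served as a look-up that sorted the eye stalk differences into those also seen in retina and those not. Eye stalks and tentacles were amputated and retinas extracted, and the strain, age, sex and genotype of the snails, any treatment, and any pooling of animals are not stated in the labels. Eye stalk libraries held 11890390 to 12286896 counts, retina libraries 40794864 to 45673871 and tentacle libraries 10804847 to 21561988, so retina was sequenced more deeply than both sides of the main comparison. Genes carried LOC identifiers, and all 21131 were found in the reference gene table as protein-coding genes, with 0 of them under any other name and no product description. No gene is therefore given a function here, and the labelled tissues could not be checked against marker genes.

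As background, the eye of this snail is a camera-type eye with a lens and a cup-shaped retina, carried on a short stalk beside the base of the cephalic tentacle. A retina holds photoreceptors, which absorb light through opsins and pass the signal on through a G protein cascade. The tentacles of freshwater snails are muscular, ciliated appendages used for touch and for chemical sensing, the long cephalic pair above the mouth region and the shorter oral pair around it. The stalk shares skin, muscle and nerve with the tentacles and differs from them in bearing the eye. The labels do not say whether the eye was left on the eye stalk samples.

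Eye stalk and tentacles differed in about as many genes upward as downward, and among called genes the median downward difference was larger. Of 16811 genes with enough counts to be tested, 4448 (26.5%) were called at an adjusted p under 0.05 (edgeR quasi-likelihood test, Benjamini-Hochberg adjustment over all genes tested). Among them 2249 (13.4%) were higher and 2199 (13.1%) lower in eye stalk than in the tentacle mean. That fit takes the 6 tentacle libraries as independent, whereas deviations of cephalic and oral libraries of 1 number correlated positively (r = 0.30 to 0.51 across genes). With each such pair summed into 1 sample, 1486 genes were higher and 1573 lower. Summing also leaves fewer libraries and residual degrees of freedom, and the cause of the fall was not tested. Median log2 fold changes were 1.02 for genes called higher and -1.39 for genes called lower, beside a median of 0.02 over all genes tested. A difference of at least 2-fold was fitted for 1140 of the higher and 1465 of the lower genes, and one of at least 32-fold for 93 and 117. With genes at 0 counts on the low side set to a floor of 3 counts over that side, the 32-fold numbers were 92 and 66. Library-size-normalised counts, given throughout as TMM-scaled CPM, of all 3 eye stalk libraries lay above those of all 6 tentacle libraries for 1913 of the genes called higher, and below them for 1982 of the genes called lower. Over all genes tested, 15.6% had every eye stalk library above every tentacle library and 15.7% had every one below. In these bulk samples, fewer cells of a type and less RNA per cell cannot be told apart.

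**Figure D1:**
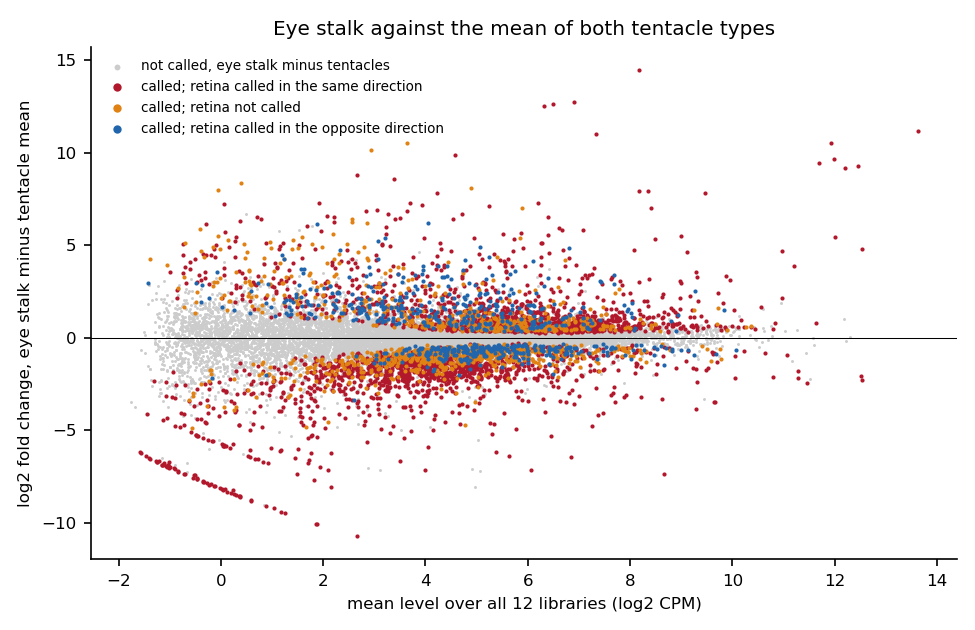
Log2 fold change of eye stalk minus the tentacle mean (y) against the mean log2 CPM over all 12 libraries (x), 1 point per tested gene. Grey points were not called in eye stalk against the tentacles; coloured points were, in red where retina was called in the same direction, orange where retina was not called and blue where it was called in the opposite direction. The most abundant genes with large positive differences are red, and so are all 117 genes fitted as at least 32-fold lower.

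The retina look-up split these differences in 3. Retina itself was called higher than the tentacle mean for 32.3% of the tested genes and lower for 32.4%. Of the 2249 genes higher in eye stalk, retina was also called higher for 1430 (63.6%), not called for 474 (21.1%) and called lower for 345 (15.3%). Of the 2199 genes lower in eye stalk, retina was also called lower for 1315 (59.8%), not called for 607 (27.6%) and called higher for 277 (12.6%). Both comparisons use the same tentacle libraries, so these counts sort the genes and do not test whether eye stalk and retina have a programme in common. A retina change of at least 2-fold was required as an alternative, and the numbers not called in retina were then 975 of the higher and 985 of the lower genes.

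The direct difference between eye stalk and retina, which does not involve the tentacles, placed each gene above, below or undecided against retina. Over all genes tested, 26.8% were called higher and 28.1% lower in eye stalk than in retina. Among the 2249 genes above the tentacle mean, 736 were also higher than in retina, 720 were lower than in retina and 793 were not called. These 720 genes thus lay between the levels of tentacle and retina. Among the 2199 genes below it, 784 were also lower than in retina, 363 were higher than in retina and 1052 were not called. Genes with a shared increase had a median eye stalk minus retina log2 difference of -0.60, and genes with a shared decrease one of 0.31.

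How often retina moved the same way depended on the size of the eye stalk difference, and in a different manner for the 2 directions. Among genes higher in eye stalk, the shared percentage was 71.0% under 2-fold, 55.4% from 2- to 4-fold, 54.3% from 4- to 32-fold and 73.1% at 32-fold or more. Among genes lower in eye stalk it was 26.7%, 66.8%, 88.1% and 100% in the same bins. All 117 genes fitted as at least 32-fold lower in eye stalk were called lower in retina too, whereas of the 93 genes at least 32-fold higher retina was not called for 21 and was lower for 4. The full sharing on the lower side did not hold in every alternative fit that included retina. It was 124 of 130 genes with DESeq2, 114 of 117 with a replicate block and 118 of 123 without retina replicate 3. Genes at or near 0 in eye stalk and retina entered the test through their tentacle counts alone, and the retina calls use those same tentacle libraries.

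**Figure D2:**
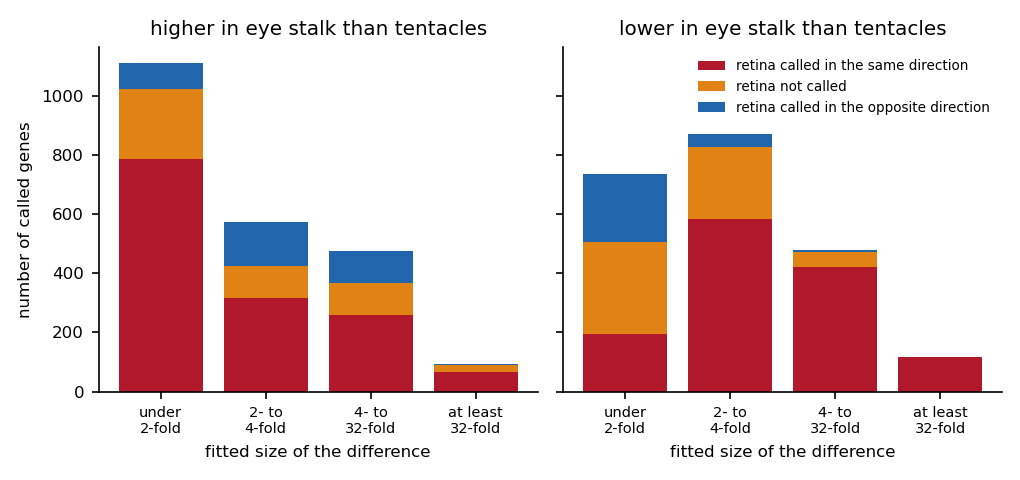
Number of genes called between eye stalk and the tentacle mean (y) by fitted size of the difference (x), for genes higher (left) and lower (right) in eye stalk. Bar segments give the retina look-up: called in the same direction (red), not called (orange) or called in the opposite direction (blue). The 4 bars on the left hold 1109, 572, 475 and 93 genes and those on the right 734, 871, 477 and 117.

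The 6 classes took unequal parts of the transcript pool. Genes higher in eye stalk with retina in the same direction took 19.4 ± 2.19% of the counts in eye stalk, 34.4 ± 4.31% in retina, 9.65 ± 0.20% in cephalic and 9.01 ± 0.48% in oral tentacle (SD, n = 3 for every tissue). Those with retina in the opposite direction took 3.55 ± 0.34% in eye stalk, 0.35 ± 0.01% in retina, 1.44 ± 0.16% in cephalic and 1.33 ± 0.12% in oral tentacle. Genes lower in eye stalk with retina in the same direction took 4.14 ± 0.40% in eye stalk, 2.32 ± 0.27% in retina, 14.1 ± 2.5% in cephalic and 13.5 ± 1.05% in oral tentacle. The 277 genes lower in eye stalk and higher in retina took 1.24 ± 0.05% in eye stalk, 2.67 ± 0.28% in retina, 2.01 ± 0.06% in cephalic and 2.31 ± 0.16% in oral tentacle. These classes were chosen on the same libraries, so their shares describe them and are no further evidence of their direction. In all 6 classes the ranges of eye stalk and tentacle libraries did not overlap.

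**Figure D3:**
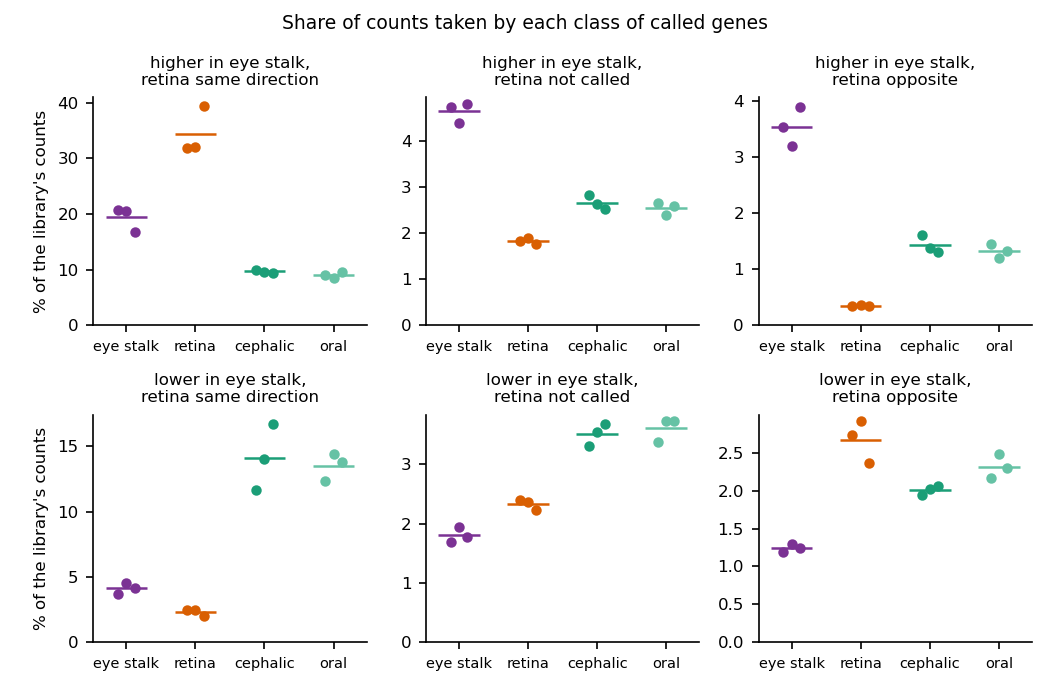
Percent of a library's deposited counts (y) taken by each class of genes called between eye stalk and the tentacle mean, by tissue (x). Points are the 3 libraries of a tissue and lines their mean. The eye stalk libraries lie apart from the 6 tentacle libraries in every panel, as the selection requires, and retina lies above eye stalk in the upper left panel and below every other tissue in the upper right one, at a mean of 0.35%.

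The genes named below were chosen by a rule that admits only genes whose eye stalk and tentacle libraries do not overlap, so that separation is part of the choice and not a result. Genes higher in eye stalk and in retina were led by transcripts that were all but undetected in the tentacles. LOC112573779 had 328, 379 and 212 CPM in eye stalk replicates 1, 2 and 3 and 554, 569 and 1411 CPM in retina replicates 1, 3 and 4, against a total of 1 count in the 6 tentacle libraries. LOC112558777 had 92.5, 101 and 85.5 CPM in eye stalk and 441, 412 and 298 CPM in retina, also against 1 tentacle count. LOC112557022 had 76.2, 115 and 44.9 CPM in eye stalk and 267, 196 and 383 CPM in retina, and LOC112576987 had 63.4, 59.6 and 97.5 CPM in eye stalk and 239, 219 and 279 CPM in retina, each against 1 tentacle count. In all 4 genes every eye stalk library was below every retina library.

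The eye stalk to tentacle ratios of these genes rest on a single tentacle count. They were 30830 for LOC112573779 (exact 95% interval of the count ratio 5533 to 1218000, edgeR adjusted p = 2.8e-06), 7863 for LOC112557022 (1410 to 310700, edgeR adjusted p = 4.4e-06) and 7482 for LOC112576987 (1342 to 295600, edgeR adjusted p = 4.0e-07), and the intervals cover counting error only. Against retina, eye stalk was lower, with a log2 difference of -2.05 ± 0.22 (SE) for LOC112558777, -1.84 ± 0.39 for LOC112557022 and -1.74 ± 0.25 for LOC112576987 (edgeR adjusted p = 0.00012, 0.0039 and 0.00052). All 4 genes stayed called between eye stalk and tentacles in all 19 alternative fits.

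The most abundant genes of this class were detected in the tentacles too. LOC112555961 had 6277, 7882 and 4398 CPM in eye stalk and 28573, 19991 and 2452 CPM in retina, against 210, 217 and 254 CPM in cephalic and 221, 215 and 233 CPM in oral tentacle. Its log2 fold change between eye stalk and the tentacle mean was 4.78 ± 0.53 (SE, edgeR adjusted p = 0.00019). Retina replicate 4 held less of it than any eye stalk library, and the eye stalk minus retina difference was not called (edgeR adjusted p = 0.067). LOC112567738 had 5591, 7346 and 3975 CPM in eye stalk and 25189, 17898 and 7081 CPM in retina, against 11.4, 13.9 and 16.4 CPM in cephalic and 6.42, 4.81 and 6.45 CPM in oral tentacle (log2 fold change 9.28 ± 0.41, edgeR adjusted p = 4.0e-07). Among the eye stalk libraries, replicate 2 was the highest and replicate 3 the lowest for both genes.

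Genes higher in eye stalk and not in retina looked different: those with the largest folds were uneven among the eye stalk libraries. LOC112554346 had 0.84, 1.16 and 146 CPM in eye stalk replicates 1, 2 and 3, 1.04, 0 and 0.28 CPM in retina, and 3 counts in all 6 tentacle libraries together. The ratio was 1710 (exact 95% interval 584 to 8301, counting error only), and the fitted log2 fold change of 10.51 (edgeR adjusted p = 0.0027) was 4.94 without eye stalk replicate 3 (edgeR adjusted p = 0.029). LOC112566837 had 3.42, 1.75 and 86.4 CPM in eye stalk, a single retina library above 0 at 0.36 CPM, and at most 0.22 CPM in any tentacle library. Its log2 fold change was 10.15 ± 1.81 (SE, edgeR adjusted p = 0.0040), and 6.6 without eye stalk replicate 3 (edgeR adjusted p = 0.019). In both genes replicate 3 held most of the eye stalk counts and raised the fitted difference. Eye stalk replicates 1 and 2 were within a few CPM of the tentacles but above them. They held 11 and 14 counts of LOC112554346, against 3 in all tentacle libraries. For LOC112566837 they held 45 and 21 counts, against 6 in all tentacle libraries. DESeq2 gave no adjusted p for either gene.

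LOC112574208 and LOC112570128 were high in more than 1 eye stalk library. LOC112574208 had 28.9, 68.6 and 257 CPM in eye stalk and 0.33, 0 and 0.09 CPM in retina, against 0.72, 0 and 0.32 CPM in cephalic and 0.41, 0.17 and 0.77 CPM in oral tentacle (log2 fold change 8.12 ± 0.88 SE, edgeR adjusted p = 0.00016, and 6.86 without eye stalk replicate 3). LOC112570128 had 35.2, 5.91 and 26.2 CPM in eye stalk and at most 0.98 CPM in any retina and 0.81 CPM in any tentacle library (log2 fold change 6.41 ± 0.82 SE, edgeR adjusted p = 0.00040). Both were also higher in eye stalk than in retina, by log2 differences of 9.69 ± 1.29 and 5.63 ± 1.02 (edgeR adjusted p = 0.00016 and 0.0010). Every eye stalk library of either gene was also above every retina library.

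The abundant genes of this class differed by less and were even. LOC112571851 had 1894, 1778 and 1837 CPM in eye stalk and 492, 562 and 553 CPM in retina, against 688, 613 and 672 CPM in cephalic and 650, 618 and 655 CPM in oral tentacle. Its log2 fold change was 1.5 ± 0.09 between eye stalk and tentacles (edgeR adjusted p = 4.5e-06) and -0.28 ± 0.10 between retina and tentacles (edgeR adjusted p = 0.029), which put it in the opposite class. LOC112565913 had 1679, 1596 and 1690 CPM in eye stalk and 602, 564 and 726 CPM in retina, against 630, 574 and 390 CPM in cephalic and 669, 563 and 488 CPM in oral tentacle (log2 fold change 1.58 ± 0.16, edgeR adjusted p = 0.00010). The 3 eye stalk libraries of each gene lay close together and above all 3 retina libraries.

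**Figure D4:**
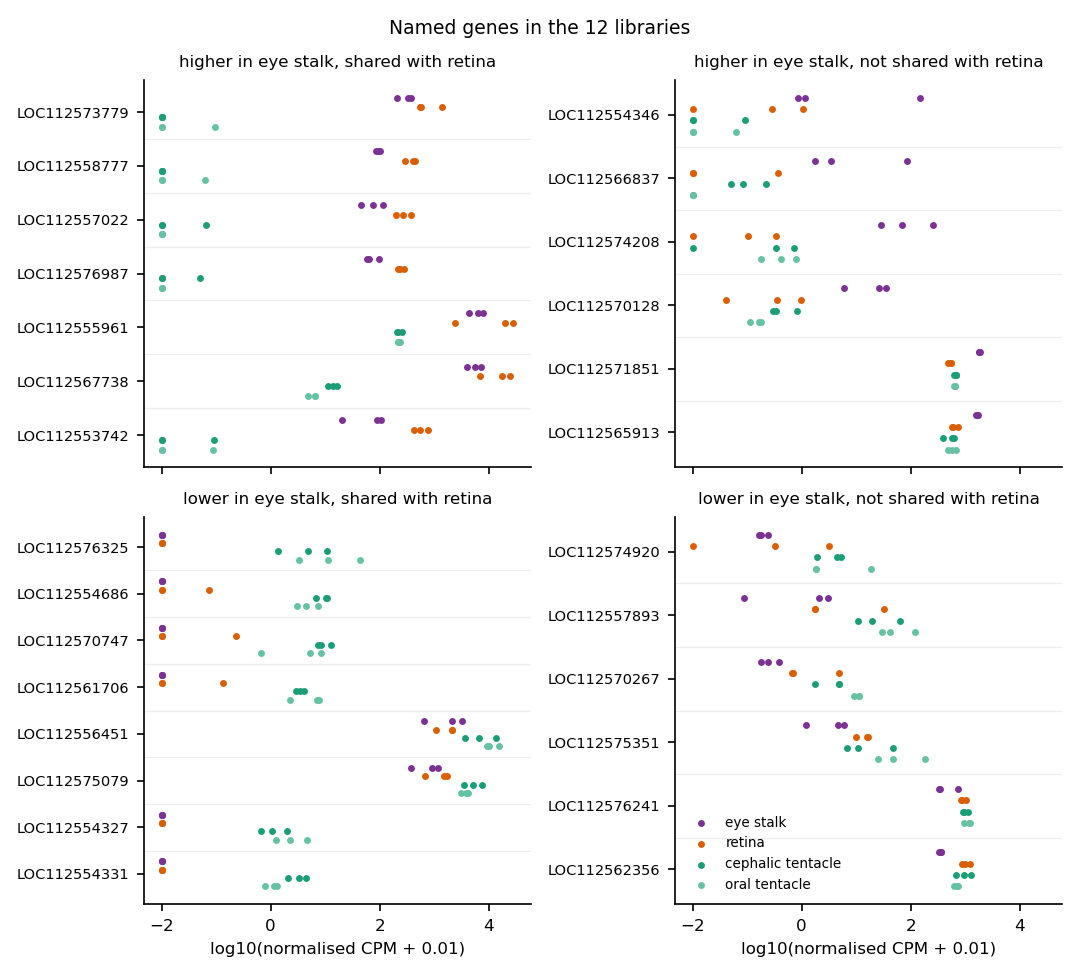
Normalised CPM, shown as log10(CPM + 0.01) on the x axis, of the 27 genes chosen by the naming rule, 1 point per library, with colours for tissue. A value of -2 stands for 0 counts. Panels split the genes by direction in eye stalk and by whether retina was called in the same direction; in the upper right panel the spread among eye stalk libraries is wide for LOC112554346 and LOC112566837 and narrow for LOC112571851 and LOC112565913.

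A minority of the genes lower in eye stalk and in retina had no count in eye stalk. Of the 1315 genes, 61 had 0 counts in all eye stalk libraries, 125 had 0 counts in all retina libraries and 141 had at most 3 counts in each retina library. The same numbers over all genes tested were not counted. Genes at 0 in both eye stalk and retina entered the test through their tentacle counts alone. LOC112576325 had 0 counts in eye stalk and in retina, against 4.75, 1.38 and 10.9 CPM in cephalic and 3.34, 11.5 and 44.0 CPM in oral tentacle, at least 140-fold lower in eye stalk. Oral tentacle replicate 3 held 573 of its 1112 tentacle counts, and without that library the bound was 77.9-fold. LOC112554686 had 0 counts in eye stalk and 2 in retina, against 10.7, 10.2 and 6.90 CPM in cephalic and 4.37, 3.09 and 7.30 CPM in oral tentacle, at least 94.4-fold lower. LOC112570747 and LOC112561706 also had 0 counts in eye stalk, with 7 and 4 counts in retina, against 736 and 467 counts in the tentacles, at least 92.7-fold and 58.8-fold lower in eye stalk (edgeR adjusted p = 0.0065 and 0.0027). The bounds use 3 counts over the 3 eye stalk libraries and the summed tentacle counts, so they leave out the spread among tentacle libraries. Oral tentacle replicate 1 held only 0.67 CPM of LOC112570747, beside 5.15 to 13 CPM in the other tentacle libraries.

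At the abundant end of the shared decrease, eye stalk kept a substantial level. LOC112556451 had 663, 2128 and 3291 CPM in eye stalk and 2172, 2164 and 1089 CPM in retina, against 3641, 6811 and 13717 CPM in cephalic and 9453, 15858 and 10357 CPM in oral tentacle (log2 fold change -2.27 ± 0.57 SE, edgeR adjusted p = 0.013). LOC112575079 had 371, 896 and 1201 CPM in eye stalk and 1732, 1533 and 687 CPM in retina, against 3485, 5251 and 7488 CPM in cephalic and 3092, 3790 and 4267 CPM in oral tentacle (log2 fold change -2.45 ± 0.44 SE, edgeR adjusted p = 0.0027). Neither gene was called between eye stalk and retina, and for both eye stalk replicate 1 was the lowest of the 12 libraries.

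Genes lower in eye stalk without a retina call had smaller differences, and several leading calls were fragile. LOC112570267 had 0.38, 0.17 and 0.23 CPM in eye stalk and 0.68, 4.94 and 0.64 CPM in retina, against 4.75, 1.74 and 4.85 CPM in cephalic and 9.19, 11.2 and 11.3 CPM in oral tentacle (log2 fold change -4.57 ± 0.87 SE, edgeR adjusted p = 0.0034). Its retina replicates 1 and 4 lay below every tentacle library. The retina minus tentacle log2 difference was -1.6 ± 0.69 (SE, edgeR adjusted p = 0.061). Here too the missing retina call does not show a retina at the tentacle level. LOC112574920 had 0.23, 0.17 and 0.15 CPM in eye stalk and 0, 0.31 and 3.19 CPM in retina, against 1.80 to 18.5 CPM in the tentacles. Its log2 fold change was -4.82 ± 1.59 and lay between -5.05 and -3.81 in the alternatives. Its call (edgeR adjusted p = 0.045) was lost in 8 of 19 alternatives, among them the omission of any 1 eye stalk library (0.13, 0.13 and 0.12) or cephalic tentacle library (0.069, 0.076 and 0.054), the omission of oral tentacle replicate 2 (0.081) and the summing of same-numbered tentacle libraries (0.076). LOC112557893 had 2.05, 3.0 and 0.08 CPM in eye stalk and 1.75, 1.74 and 32.3 CPM in retina, against 11 to 120 CPM in the tentacles. For LOC112574920 and LOC112557893 retina replicates 1 and 3 were near the eye stalk level and replicate 4 was the highest of the 3, so the lack of a retina call does not show a retina at the tentacle level. The log2 fold change of LOC112557893 was -4.72 ± 1.37, between -5.39 and -4.16 in the alternatives, and its call (edgeR adjusted p = 0.026) was lost without any 1 eye stalk library (0.088, 0.061 and 0.073). LOC112575351 had 1.21, 5.99 and 4.59 CPM in eye stalk and 15.8, 9.81 and 16.2 CPM in retina, against 6.68 to 183 CPM in the tentacles (log2 fold change -3.45 ± 0.89 SE, edgeR adjusted p = 0.016). Without eye stalk replicate 1 it was not called, at a log2 fold change of -3.02 (edgeR adjusted p = 0.066).

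The abundant genes of that class stayed called in all 19 alternatives, as did LOC112570267. The highest edgeR adjusted p there was 0.0091 for LOC112562356, 0.043 for LOC112576241 and 0.018 for LOC112570267. LOC112562356 had 335, 354 and 357 CPM in eye stalk and 891, 1243 and 998 CPM in retina, against 687, 951 and 1280 CPM in cephalic and 625, 716 and 752 CPM in oral tentacle (log2 fold change -1.24 ± 0.19 SE, edgeR adjusted p = 0.0012). LOC112576241 had 351, 749 and 336 CPM in eye stalk and 1031, 826 and 876 CPM in retina, against 1145, 947 and 919 CPM in cephalic and 937, 1173 and 1255 CPM in oral tentacle (log2 fold change -1.15 ± 0.26 SE, edgeR adjusted p = 0.0080). Both were also lower in eye stalk than in retina, by log2 differences of -1.58 ± 0.22 and -0.93 ± 0.28 (edgeR adjusted p = 0.00018 and 0.018). In each, all 3 eye stalk libraries lay below the 3 retina libraries.

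Called genes often lay next to each other along the reference assembly, a property that the selection did not use. Of the 2249 genes higher in eye stalk, 34.1% had a neighbouring tested gene that was called higher, beside 24.6% of all tested genes. Of the 2199 lower genes, 35.8% had a neighbour called lower, beside 24.1% of all tested genes. For the 93 and 117 genes fitted as at least 32-fold higher or lower these percentages were 47.3% and 60.7%. With genes at 0 counts set to the floor, they were 46.7% of 92 and 63.6% of 66 genes. Unbroken runs of at least 3 tested genes called in the same direction numbered 75 for higher and 60 for lower genes. They held 238 of the genes called higher (10.6%) and 204 of those called lower (9.28%). Of the 93 and 117 genes with fitted 32-fold differences they held 23 (24.7%) and 44 (37.6%). How many runs a random gene order would give was not tested. Whether neighbouring genes are near-identical copies, between which counting could split reads, was not tested, so the values of single genes in a run are uncertain. Genes were ordered by sequence and start position in the reference gene table. The build behind the counts is not given, so only this order was used and no positions are printed.

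The longest run was singled out after its values were seen and consisted of 13 consecutive tested genes, from LOC112565941 to LOC112565963, all lower in eye stalk and in retina. Their counts summed to 0, 7 and 0 in eye stalk replicates 1, 2 and 3 and to 0 in every retina library, against 602, 362 and 442 in cephalic and 332, 187 and 328 in oral tentacle. In normalised terms the sum was at most 0.58 CPM in eye stalk, against 16.1 to 26.3 CPM in the tentacles. Every member was detected in all 6 tentacle libraries, with 3 to 125 counts each. Between cephalic and oral tentacle 0 of the 13 were called. Over all genes tested that share was only 0.345%, so the lack of a call does not show equal levels. Single members were low, with edgeR adjusted p from 0.00049 to 0.014, and passed the count filter through the tentacle libraries alone. The members are not independent of each other if reads were split between them. The stretch held a further 6 protein-coding genes with too few counts to be tested. All 13 were called in every alternative that tested them all except without eye stalk replicate 1, which called 12, and the fits on the 9 libraries alone tested and called 11.

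**Figure D5:**
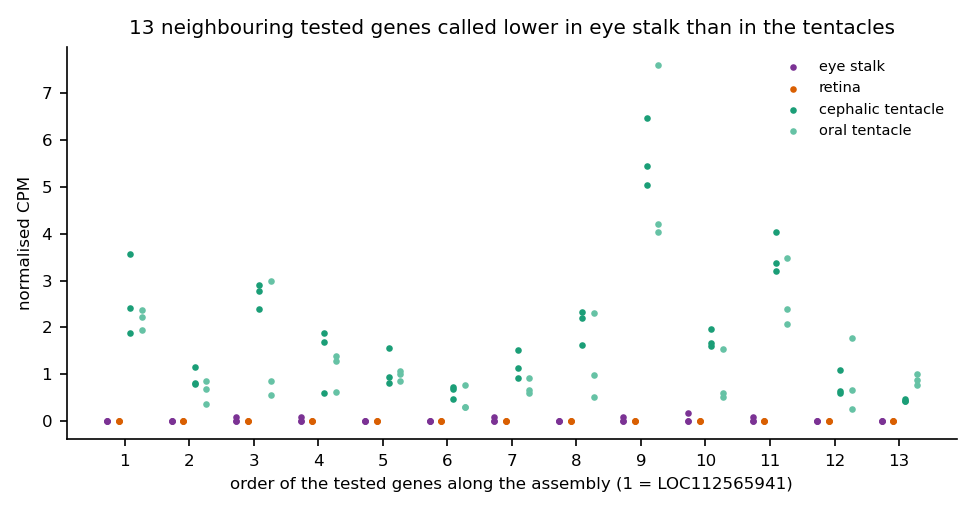
Normalised CPM (y) of 13 consecutive tested genes, ordered by start position in the reference gene table (x), 1 point per library with colours for tissue. Eye stalk and retina points lie at or near 0 for all 13 genes, and tentacle points reach between 0.77 and 7.60 CPM in the highest library of each gene.

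A shorter run behaved likewise. The 5 consecutive tested genes from LOC112575799 to LOC112575803 summed to 0, 2 and 0 counts in eye stalk and to 0 in retina, against 411, 246 and 243 counts in cephalic and 295, 161 and 203 in oral tentacle. In the other direction, the 5 consecutive tested genes from LOC112568223 to LOC112567941 summed to 26.9, 41.9 and 48.6 CPM in eye stalk and 1.59, 1.40 and 4.17 CPM in retina, against 3.54, 1.45 and 1.56 CPM in cephalic and 6.11, 3.69 and 9.45 CPM in oral tentacle. Retina was not called for 4 of these 5 genes and was called lower for 1. Other long runs were less uniform. The longest higher run, 6 genes from LOC112566699 to LOC112566441, summed to 366, 363 and 279 CPM in eye stalk and 745, 628 and 704 CPM in retina, against 206, 188 and 209 CPM in cephalic and 168, 146 and 210 CPM in oral tentacle, with retina shared for 5 genes. A lower run of 5 genes from LOC112553180 to LOC112553453 summed to 12, 22 and 10 counts in eye stalk and 55, 91 and 156 counts in retina, against 782, 420 and 404 in cephalic and 239, 123 and 238 in oral tentacle, with retina shared for 4. Runs of 5 with smaller differences also occurred. LOC112563804 to LOC112564308 were higher at a median log2 fold change of 0.63, with retina shared for 5. LOC112571249 to LOC112570442 were lower at a median of -0.83, with retina shared for 1, opposite for 1 and not called for 3. These stretches were also picked after their values were seen.

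The neighbouring pairs with the largest summed folds were named by rule. On the higher side they were LOC112553742 and LOC112554346, which lay side by side but differed in retina. LOC112553742 had 105, 87.9 and 20 CPM in eye stalk and 543, 420 and 765 CPM in retina, against 3 counts in all tentacle libraries together (ratio 2386, exact 95% interval 815.7 to 11580, edgeR adjusted p = 5.2e-06), while LOC112554346 reached at most 1.04 CPM in retina. Eye stalk replicate 3 held the least of the first and the most of the second. On the lower side, LOC112554327 and LOC112554331 had 0 counts in eye stalk and retina and 197 and 229 counts in the tentacles, at least 24.8-fold and 28.8-fold lower in eye stalk (edgeR adjusted p = 0.0052 and 0.0018).

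Most called genes differed from both tentacle types in the same direction. Eye stalk was called higher than cephalic tentacle for 9.11% and lower for 9.83% of the tested genes, and higher than oral tentacle for 10.7% and lower for 12.4%. Of the genes higher than the tentacle mean, 1226 were called against each tentacle type, 491 against oral tentacle only, 251 against cephalic tentacle only and 281 against neither alone. Of those lower, 1279 were called against each, 543 against oral only, 290 against cephalic only and 87 against neither. The fitted sign was the same against both types for 2245 of 2249 and 2197 of 2199 genes. Median log2 fold changes of the higher genes were 0.96 against cephalic and 1.03 against oral tentacle, and those of the lower genes -1.40 and -1.34. Cephalic and oral tentacle themselves differed in 0.345% of the tested genes, and such genes made up 17 of the higher and 12 of the lower ones.

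The 3 eye stalk libraries were uneven in some sets of called genes and not in others. The median SD among them, in percent of a gene's mean, was 22.0% over all genes tested. It was 17.0% for the 1430 higher genes shared with retina and 35.8% for the 68 of these at least 32-fold higher. For the 21 genes at least 32-fold higher without a retina call it was 85.2%, and for the 1315 genes with a shared decrease 38.8%. Which replicate was lowest or highest was not counted over all genes tested. Replicate 3 had the lowest CPM of the 3 for 934 of the 1430 genes shared with retina, and for 52 of the 68 at least 32-fold higher ones. Those 68 genes summed to 27370, 31250 and 15620 CPM in eye stalk replicates 1, 2 and 3, and their median level was 26.9%, 33.6% and 18.9% of the retina mean. In contrast, among the 21 genes at least 32-fold higher without a retina call, replicate 3 was the highest for 17, with summed levels of 546, 445 and 1463 CPM. Among the 1315 genes with a shared decrease, replicate 2 was the highest for 805, with a median level of 6.07, 8.49 and 4.74 CPM in replicates 1, 2 and 3. Mean correlation of log2(CPM + 1) with the retina libraries was 0.82, 0.83 and 0.78 for eye stalk replicates 1, 2 and 3, and with the tentacle libraries 0.86, 0.88 and 0.85, across genes, which are not independent replicates. Without replicate 3, 2023 genes were called higher and 1781 lower, of which 3442 were among the 4448 calls made with all libraries.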

How the data were processed

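The authors deposited 1 table of raw whole-number read counts per gene for 12 libraries; per the submitters' processing notes, STAR was used. The STAR version, counting tool, strand setting, build and annotation: not given in the sources used here. Without a known strand setting, reads of overlapping or antisense genes cannot be told apart. Deviations from tissue means correlated positively between same-numbered cephalic and oral libraries (r = 0.30 to 0.51 across genes). Between same-numbered eye stalk and tentacle libraries they correlated negatively for numbers 1 and 3 (-0.38 to -0.23). For number 2 these values were 0 and 0.03. All 12 columns matched sample titles and 0 were unused. Labels do not say that libraries came from different animals, so p-values measure the spread between libraries, which may be technical.

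The deposited counts were fitted with edgeR 4.0.16 (R 4.3.3; filterByExpr minimum count 10, TMM, robust quasi-likelihood, tissue as the only term, 8 residual degrees of freedom). The tentacle mean is a mean of log-scale coefficients. CPM use TMM-scaled library sizes. Standard errors derive from the F statistic. Counting intervals are exact binomial (95%). No libraries of a tissue were duplicates: chi-square per degree of freedom was 34.0 or more. Retina replicate 4 stood apart, at 665.9 from retina replicate 1 and 527.4 from replicate 3. Retina replicates 1 and 3 were at 80.3 from each other, and the largest value within any other tissue was 127.4. The retina look-up includes replicate 4.

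Members and lists were chosen with earlier results of these data known. Named genes: in each of 4 classes (direction by shared or not), the 4 largest folds with log2 CPM of at least 1 and the 2 most abundant of at least 2-fold, none overlapping between eye stalk and tentacles, plus 1 neighbouring pair per direction. Lists by product description or protein pattern could not be applied, because no descriptions or sequences were to hand. DESeq2 1.42.0, RLE scaling, no filter, replicate block, other libraries and other definitions of sharing were alternatives.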

Additional observations from a re-analysis of the deposited data

Results flagged for a closer look

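Eye stalk and retina differed from the tentacles in opposite directions for 345 genes higher in eye stalk and lower in retina and for 277 genes lower in eye stalk and higher in retina. The median eye stalk minus retina log2 difference was 4.16 in the first set and -1.48 in the second. That difference is fixed in sign by how the sets were chosen, since it is the gap between 2 selected differences, and is given as a description.

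For 14 of the 16811 genes tested the eye stalk was called against both tentacle types but in opposite directions. It lay between them, and the mean over tentacles hid this. The difference between the tentacle types was called for each. Its sign is fixed by how these genes were chosen, since it is the gap between 2 selected differences, and its values are given as a description. Cephalic minus oral log2 fold changes were 10.68 for LOC112565444, 10.46 for LOC112564753, 8.88 for LOC112575956, 6.55 for LOC112557143, 5.11 for LOC112554608, 1.86 for LOC112566814 and 1.49 for LOC112562639. The reverse held for LOC112555577 (-7.26), LOC112554186 (-5.16), LOC112554692 (-3.99), LOC112554359 (-2.40), LOC112561552 (-2.08), LOC112561184 (-1.54) and LOC112554012 (-1.13). LOC112554608, for example, had 3.49, 4.99 and 3.13 CPM in eye stalk, against 60.8, 40.0 and 34.9 CPM in cephalic and 1.85, 0.77 and 1.23 CPM in oral tentacle. LOC112564753 and LOC112565444 had 0 CPM in all oral libraries, and their fitted folds depend on the prior count.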

How the results depend on the processing

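Across 19 alternative fits, 0 of the genes called there and in the fit reported above had the other sign. Leaving out 1 library at a time gave 1512 to 2702 genes higher and 1475 to 2582 lower than the tentacle mean. Of the higher genes, 972 to 1610 were shared with retina, 227 to 450 opposite and 313 to 642 not called, and of the lower ones 943 to 1513, 169 to 318 and 363 to 751. Genes higher than tentacles numbered 499 to 907 above and 440 to 844 below retina, and lower ones 491 to 870 below and 199 to 512 above it. Against cephalic tentacle 837 to 1900 were higher and 1139 to 1954 lower, and against oral tentacle 1195 to 2181 and 1359 to 2471. The lowest values came without eye stalk replicate 1, except for the cephalic counts (without cephalic replicate 2) and lower genes above retina (without eye stalk replicate 2), and the highest without retina replicate 4. Moves beyond 1.5 times came without eye stalk replicate 1 (the opposite and uncalled classes, higher genes below retina, lower genes below retina, 202 lower genes above retina, and 3 of the 4 counts against a single tentacle type), eye stalk replicate 2 (455 higher genes below and 199 lower genes above retina), cephalic replicates 1 and 2 (998 and 837 genes higher than cephalic tentacle) and oral replicate 2 (181 lower genes opposite, 1377 lower than oral tentacle). Losing a library also removes residual degrees of freedom.

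Summing same-numbered tentacle libraries gave 1486 genes higher, of which 930 were shared and 193 opposite, and 1573 lower, with 119 lower genes opposite, 468 higher genes below retina and 510 lower genes below retina. Requiring a call against each tentacle type gave 1226 higher and 1279 lower. With a retina change of at least 2-fold, 975 higher and 985 lower genes were not called in retina and 80 lower genes were opposite. DESeq2 put 635 lower genes above retina. The cause of these shifts was not tested.

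A replicate block called 2302 higher and 2266 lower genes over 12 libraries, and 2113 and 2459 within the 9, and 0 named genes lost their call under it. The block fits the same effect of a number in every tissue. Deviations of same-numbered eye stalk and tentacle libraries, however, correlated negatively for numbers 1 and 3. Number 4 was held by a retina library alone. The kept calls therefore do not show that pairing of libraries is without effect. Planned list counts were not run.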
